A study of Mus musculus with 36 samples.

Results

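The genes described here encode the interleukin-1 (IL-1) system and the cytokines usually followed with it in the infarcted heart. They are the agonists Il1b and Il1a, the receptor antagonist Il1rn, the receptors Il1r1, Il1r2 and Il1rl1, the alarmin Il33, and Il6, Tnf and Il10. They were chosen by symbol, not by a measured value, and are 10 of the 20720 nuclear genes in the deposited single-cell count tables; each of them had at least 1 unique molecular identifier (UMI, a random tag that marks 1 captured transcript).

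Single cells were sorted by SORT-seq, a plate method with a polyT primer and a UMI of 6 bases, from the infarcted left ventricular region, or the matching region of sham hearts, of C57BL/6 mice, all male and aged 8 weeks. The mice had undergone sham surgery and were sampled on day 1 (4 plates) or day 14 (8 plates), ischaemia-reperfusion (IR), in which the left anterior descending coronary artery was tied for 1 hour and then released, sampled on day 1 (9 plates), day 3 (7 plates) or day 14 (3 plates), or a permanent ligation of the same artery (myocardial infarction, MI) sampled on day 3 (5 plates). No transgene or drug was involved, and the labels do not say which plates share a mouse. For its single-cell work the paper describes fewer infarcted mice than there are MI plates, so some MI plates would share a mouse. Plates cannot be taken as independent mice, and each n given here counts plates. The p-values over plates therefore measure the spread between plates, and the spread between mice could not be measured. There was no day 3 sham group, so the day 3 groups were set against the mean of the day 1 and day 14 sham groups, and the MI plates follow their own protocol label, so that protocol and permanent ligation cannot be told apart.

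Wells with at least 1000 UMIs were used, 3146 of the 13824 wells sorted. Plate totals ran from 176614 to 5551870 UMIs, and the median well held 13120 UMIs in MI and 2217 to 3230 in the other groups. Mitochondrial transcripts took a median of 9.55% of UMIs in MI wells, 29.4% at IR day 1, 46.5% at IR day 3 and 67.6% to 69.4% in the sham and IR day 14 wells. Before the results were taken, 19 of these wells, which repeated a well of another plate, were set aside, the deposited tables of day 14 sham replicates 2 and 7 were counted as 1 plate because they held the same wells, and IR day 3 replicate 2 had no well of 1000 UMIs, which left 3092 wells. Levels are UMIs per 1000000 nuclear-gene UMIs (CPM), either per plate or pooled over the cells of a class. Intervals on pooled values are exact Poisson intervals at 95%, and they cover counting error only. Where the plates of groups are said not to overlap, this describes the gene named, without the share of all genes for which it held.

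IL-1β and IL-1α act on the same signalling receptor, IL-1R1, which recruits MyD88 and turns on NF-kB. IL-1β is made as a precursor that caspase-1 cuts once an inflammasome such as NLRP3 has formed. The system carries its own brakes, since the antagonist encoded by Il1rn occupies IL-1R1 without signalling and IL-1R2 is a decoy that binds the ligand but lacks the signalling domain. IL-33 is a nuclear alarmin released by damaged stromal cells, and its receptor ST2 is encoded by Il1rl1. In the infarct, IL-1β, TNF and IL-6 are known as early inflammatory cytokines, and IL-10 as an anti-inflammatory one.

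In the GRCm38 annotation, Il1r2 (chromosome 1, 40074079 to 40125231), Il1r1 (40225080 to 40317257) and Il1rl1 (40429570 to 40465415) are neighbours on the plus strand. Il1a (129299610 to 129309972) and Il1b (129364570 to 129371139) are on the minus strand of chromosome 2, where Il1rn (24336853 to 24351494) is on the plus strand. Il10 is on chromosome 1 (131019845 to 131024974), Il6 on chromosome 5 (30013114 to 30019981), Tnf on chromosome 17 (35199381 to 35202007) and Il33 on chromosome 19 (29925114 to 29960718). The bases before the start sites of 4 of these genes (RefSeq, GRCm38.p6, written 5′ to 3′ in the direction of the gene) are shown because Il1b, Il1rn and Tnf were read mostly in the same classes of cells and Il6 in another. Capitals mark matches to an NF-kB motif (GGG and TTTCC with any 2 bases between them), to TGANTCA (AP-1) or TTGCNNAA (C/EBP), each searched on both strands.
Il1b (chr2:129371165-129371389, strand -): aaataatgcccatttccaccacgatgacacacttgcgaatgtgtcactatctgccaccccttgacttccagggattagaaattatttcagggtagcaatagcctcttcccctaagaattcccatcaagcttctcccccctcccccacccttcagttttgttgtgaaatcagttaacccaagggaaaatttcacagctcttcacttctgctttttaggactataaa
Il1rn (chr2:24336610-24336852, strand +): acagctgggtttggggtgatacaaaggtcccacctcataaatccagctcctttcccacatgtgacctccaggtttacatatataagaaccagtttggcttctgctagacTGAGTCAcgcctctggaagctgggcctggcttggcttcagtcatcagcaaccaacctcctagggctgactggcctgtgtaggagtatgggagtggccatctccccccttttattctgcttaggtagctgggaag
Tnf (chr17:35202008-35202257, strand -): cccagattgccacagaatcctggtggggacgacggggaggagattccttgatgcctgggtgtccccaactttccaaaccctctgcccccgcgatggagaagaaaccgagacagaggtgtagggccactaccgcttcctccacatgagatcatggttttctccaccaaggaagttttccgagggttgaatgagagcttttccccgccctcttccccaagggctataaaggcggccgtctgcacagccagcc
Il6 (chr5:30012864-30013113, strand +): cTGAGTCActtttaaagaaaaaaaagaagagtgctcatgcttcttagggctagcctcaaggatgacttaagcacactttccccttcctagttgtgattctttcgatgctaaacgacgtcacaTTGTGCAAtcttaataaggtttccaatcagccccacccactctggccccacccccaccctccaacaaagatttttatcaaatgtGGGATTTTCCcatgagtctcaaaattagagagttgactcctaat
The Il6 window held all 3 motifs, with the AP-1 match at -249 to -243, the C/EBP match at -128 to -121 and the NF-kB match at -44 to -35 from the start site. The Il1rn window held an AP-1 match at -141 to -135, and none of these letters were found in the Il1b and Tnf windows. Positions count back from the RefSeq start over 250 bases, and bases of that window which an annotated transcript already covers were left off the printed Il1rn and Il1b stretches. RefSeq gives Il1rn other starts, not printed, and before 1 of them there was an NF-kB match at -51 to -42. Among the members not printed, Il1a had an AP-1 match, and Il1r1, Il1rl1 and Il33 each had a C/EBP match before 1 start. Over 32851 promoters the NF-kB letters were present in 1.41%, the AP-1 letters in 6.75% and the C/EBP letters in 9.56%, so a match is a description of the sequence and not a site.

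Which cells held the transcripts was asked first. Cells were clustered without the 10 genes and without the pathway genes named further on, and classes were named from marker lists. Of the 3092 cells, 152 were neutrophil-like (S100a8, S100a9), 454 macrophage-like, 293 fibroblast-like, 395 endothelial-like, 20 mural-like, 1167 cardiomyocyte-like, 12 erythrocyte-like, and 427 stayed unnamed. A cluster of 172 cells led by Cd74, Cxcl3, H2-Aa, Ccl17, Ccr2 and Cd79a carried markers of several classes. It is called the Ccr2 and MHC class II cluster. Doublets were not removed.

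Most Il1b UMIs lay in neutrophil-like and macrophage-like cells and in the Ccr2 and MHC class II cluster. Pooled over all groups, the neutrophil-like cells held 9924 CPM (9613 to 10242), the Ccr2 and MHC class II cluster 2153 CPM (2095 to 2212) and the macrophage-like cells 245 CPM (235 to 255), against 18.9 CPM (16.1 to 22.0) in fibroblast-like and 3.23 CPM (1.81 to 5.32) in cardiomyocyte-like cells. The neutrophil-like cells were 1.27% of all UMIs and held 31.3% of the 12306 Il1b UMIs. The Ccr2 and MHC class II cluster held 42.5% and the macrophage-like cells 18.0%. The 427 unnamed cells were at 178 CPM and held 1.84%. An Il1b UMI was found in 150 of the 152 neutrophil-like cells, and with each cell thinned to 1000 UMIs still in 149 of them, or 98.0%. Cardiomyocyte-like cells, which are not a main source of IL-1β, had an Il1b UMI in 3 of 34 cells at IR day 1 and 3 of 19 in MI, at 47.5 CPM (15.4 to 111) and 13.1 CPM (2.69 to 38.2). The median depth of these cells was 1952 and 8820 UMIs, and whether these UMIs were free RNA was not tested. The mural-like cells had 462 CPM of Il1b, but 5 of the 20 cells carried all of it.

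Il1a, the other agonist, was captured as 265 UMIs in all. It was at 121 CPM in neutrophil-like cells, 42.8 CPM in the Ccr2 and MHC class II cluster and 10.9 CPM in macrophage-like cells, and 10 cells held 49.8% of its UMIs.

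Both brakes on IL-1 were highest in neutrophil-like cells, and were spread differently over the other classes. Il1r2, the decoy receptor, was at 2855 CPM (2689 to 3028) in neutrophil-like cells, 165 CPM in the Ccr2 and MHC class II cluster and 12.3 CPM in macrophage-like cells. Neutrophil-like cells held 57.3% of its 1937 UMIs. Beyond these classes, Il1r2 was at 14.7 and 7.09 CPM in the fibroblast-like clusters and 18.0 and 12.3 CPM in the endothelial-like clusters. In mural-like cells it was at 69.3 CPM, and in the unnamed clusters at 36.4 to 122 CPM, so macrophage-like cells did not stand out for it. Il1rn, the antagonist, was at 1331 CPM (1219 to 1451) in neutrophil-like cells, 310 CPM in the Ccr2 and MHC class II cluster and 146 CPM (138 to 154) in macrophage-like cells, and the macrophage-like cells, 29.5% of all UMIs, held 47.2% of its 2790 UMIs. Of the 152 neutrophil-like cells, 125 held UMIs of both Il1b and Il1r2 and 92 held both Il1b and Il1rn.

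Tnf followed the same classes, with 399 CPM (339 to 467) in neutrophil-like, 76.6 CPM in Ccr2 and MHC class II and 40.3 CPM in macrophage-like cells. Il10 was rare, 87 UMIs in all, and macrophage-like cells held 81.6% of them at 7.86 CPM (6.14 to 9.92).

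The stromal members formed another pattern. Il33 was at 207 CPM (197 to 217) in fibroblast-like cells, which held 93.8% of its 1950 UMIs, and at 7.06 CPM or less in endothelial-like, cardiomyocyte-like and macrophage-like cells. Il1r1, the signalling receptor, was at 150 CPM (142 to 158) in fibroblast-like cells, 117 CPM (95.4 to 142) in the 20 mural-like cells and 37.9 CPM (31.4 to 45.4) in endothelial-like cells, and at 4.32 CPM (3.07 to 5.90) in macrophage-like cells. Fibroblast-like cells held 79.7% of its UMIs. Il6 was at 64.9 CPM (59.7 to 70.4) in fibroblast-like and 166 CPM (140 to 195) in mural-like cells, where 5 of 20 cells carried it, and no UMI fell in 1167 cardiomyocyte-like cells. Il1rl1 was at 3.73 to 8.24 CPM in each of the named classes of more than 20 cells and in the Ccr2 and MHC class II cluster. Single clusters stood higher, at 49.5 CPM (34.3 to 69.2) in an unnamed cluster of 164 cells from 34 UMIs, and at 48.5 CPM (27.1 to 80.0) in a macrophage-like cluster of 38 cells led by Cd209f, Vsig4 and Lyve1, from 15 UMIs.

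**Figure D1:**
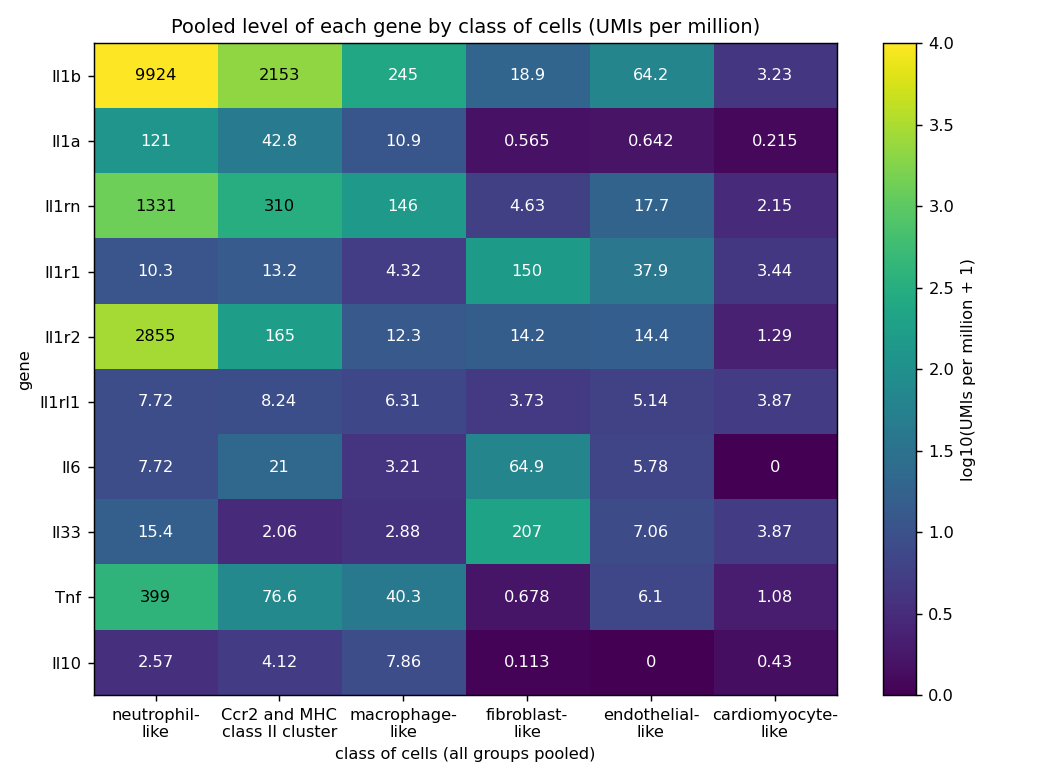
Heat map of the level of the 10 genes (rows) in each cell class (columns), in CPM pooled over all groups, on a logarithmic colour scale. Il1b, Il1a, Il1rn, Il1r2 and Tnf are highest in the neutrophil-like column, where Il1b reaches 9924 CPM, and Il33 and Il1r1 are highest in the fibroblast-like column, at 207 and 150 CPM.

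Fibroblast-like cells were split by the clustering into a cluster led by Cxcl5 and Timp1, which held no sham cell, and one led by Pi16, which held all the sham fibroblast-like cells. Il6 was at 68.7 CPM (63.2 to 74.6) in the 211 cells of the first and 8.87 CPM (2.88 to 20.7) in the 82 of the second. Il1r1 was at 156 CPM in the first and 67.4 CPM in the second, and Il33 at 212 and 131 CPM, so that of these 3 genes the clusters differed least in Il33. These are descriptions, since the clusters were made from the same cells. In MI, where 119 of all 132 fibroblast-like cells held an Il1r1 UMI, 61 of the 62 with an Il6 UMI also held one, as did 88 of the 90 with an Il33 UMI. Thinned to 1000 UMIs per cell, 22 of the 132 held Il1r1, among them 3 of the 11 with Il6 and 1 of the 14 with Il33.

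The timing was then followed in all wells of each plate. In these sums, fewer cells of a type and less RNA per cell cannot be told apart, and the share of neutrophil-like cells moved with the groups: 22.0% ± 9.57 (SD, n = 9 plates) of wells at IR day 1, 6.57% ± 2.11 (n = 5) in MI, 0.182% ± 0.365 (n = 4) in day 1 sham and 0 of 608 wells at IR day 3. Counting wells alone, 0 of 608 allows up to 0.493%. However, replicates 4 and 7 gave 264 and 202 of these wells, and wells of a plate are not independent. Neutrophil-like cells were shallow, at a median of 2054 UMIs, and whether the minimum of 1000 UMIs removed some was not tested. Fibroblast-like cells were 10.4% ± 4.51 of wells at IR day 1, 14.2% ± 16.2 at IR day 3, 18.3% ± 2.55 in MI, 5.72% ± 4.09 in day 1 sham and 2.90% ± 3.53 (n = 7) in day 14 sham. Macrophage-like cells were 5.87% ± 6.29 of wells at IR day 1, 30.2% ± 8.84 (n = 6) at IR day 3 and 29.7% ± 5.00 in MI.

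Il1b had its highest level 1 day after reperfusion. The lowest, median and highest of the 9 IR day 1 plates were 735, 1329 and 1833 CPM, and the 5 MI plates were at 337, 434, 445, 571 and 406 CPM. The 4 day 1 sham plates were at 0, 177, 33.7 and 60.7 CPM, and the 6 IR day 3 plates at 90.6, 84.0, 68.2, 28.2, 4.76 and 85.6 CPM. The IR day 1 plates lay above all others and the MI plates above all sham, IR day 3 and IR day 14 plates, while IR day 3 and day 1 sham overlapped. Of 7 day 14 sham plates, 6 had no Il1b UMI and 1 stood at 175 CPM from 3 UMIs in 1 cell. The IR day 14 plates were at 0.992, 4.70 and 7.77 CPM. In day 1 sham, 97.5% of the 120 Il1b UMIs lay in 10 cells, among them 4 of the Ccr2 and MHC class II cluster with 84 UMIs and 1 neutrophil-like cell with 15.

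At IR day 1, 7 of the 10 genes were higher than in day 1 sham by edgeR's quasi-likelihood test with Benjamini-Hochberg adjustment over 15612 genes, where 22.4% of all genes tested were called and 10.2% were called higher. The log2 difference in all wells was 4.07 ± 0.70 (SE) for Il1b (adjusted p = 2.15e-05), 4.55 ± 0.60 for Il1rn (adjusted p = 3.25e-07), 2.32 ± 0.40 for Il1r1 (adjusted p = 1.71e-05) and 4.17 ± 0.67 for Tnf (adjusted p = 6.19e-06). Il1a (fitted 7.81 ± 1.46, adjusted p = 0.000112), Il1r2 (7.80 ± 0.78, adjusted p = 1.72e-09) and Il6 (6.47 ± 1.04, adjusted p = 1.14e-05) were also called, and their sham level was at or near 0. Counted in pooled UMIs, Il1a was at least 21.1-fold higher than a floor of 3 counts over the day 1 sham group allows, Il1r2 was at 973 against 2 UMIs (ratio 263, interval 72.6 to 2175) and Il6 at 234 against 1 (ratio 127, interval 22.5 to 5019). With each well thinned to 1000 UMIs the Il1r1 difference was 1.24 and lost its call (adjusted p = 0.322). Il33 (2.02 ± 0.80, adjusted p = 0.0627), Il1rl1 (-0.83, adjusted p = 0.276) and Il10 (-0.16, adjusted p = 0.974) did not pass. The median log2 difference of the 10 genes was 4.12, and that of all genes -0.05.

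At day 1 the IR and sham plates did not overlap for the decoy receptor and the antagonist, nor for Il1b, Il1a, Il1r1 and Tnf. The share of all genes without overlap is not given. Il1r2 ran from 115 over 209 to 670 CPM on the IR day 1 plates, against 0, 0, 2.81 and 0 CPM on the day 1 sham plates. Il1rn ran from 182 over 361 to 633 CPM against 2.21, 14.2, 16.9 and 14.5 CPM. Tnf ran from 36.3 over 79.8 to 340 CPM against 0, 11.8, 2.81 and 5.78 CPM. Il6 was more scattered, from 0 over 46.8 to 208 CPM against 0, 0, 1.40 and 0 CPM, and 10 cells held 78.2% of the Il6 UMIs of IR day 1. A single cell held 110 of the 184 Il33 UMIs of that group.

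At IR day 3 the antagonist was the gene with the lowest adjusted p against sham. Il1rn was higher (5.27 ± 0.85, adjusted p = 1.42e-05), as were Il10 (3.70 ± 1.27, adjusted p = 0.0347) and Il1b (2.00 ± 0.69, adjusted p = 0.0335), and Il1rl1 was lower (-2.45 ± 0.62, adjusted p = 0.00355), so that 3 were higher and 1 lower of 10, where 19.7% of all genes were called, 11.5% higher and 8.16% lower. The size of these differences depended on the sham group. Against day 1 sham alone the log2 difference of Il1rn was 2.00 (adjusted p = 0.0256), and against day 14 sham, which had no Il1rn UMI, the fitted value was 8.55. The call of Il1b rested on the day 14 sham plates, for against day 1 sham alone its log2 difference was -0.28 (adjusted p = 0.82), and Il10 was not called against either sham group alone. After thinning to 1000 UMIs per well, Il1b (1.68, adjusted p = 0.104) and Il1rl1 (-0.46, adjusted p = 0.804) lost their calls. Il1b and Il10 also lost their calls without single day 1 sham plates, Il1b at 1.81 without replicate 3 and 1.91 without replicate 4, and Il10 at 3.35 to 3.55 without replicate 1, 2 or 3. Il10 was read at 22.7, 0, 6.56, 0, 0 and 1.71 CPM on the 6 plates, from 21 UMIs. The first value came from 1 UMI on replicate 1, a plate of 44133 UMIs. Macrophage-like cells of replicate 4 held 16 of the 21 UMIs. Il1rn lay at 22.7, 147, 63.1, 28.2, 4.76 and 56.5 CPM. Il1r2 was at 0 CPM on 4 of the 6 plates and at 4.28 CPM on the highest, and Il6 likewise at 4.28 CPM or less.

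In MI at day 3, 9 of the 10 genes differed from sham, 8 higher and 1 lower, in a comparison that called 46.5% of all genes, 26.7% higher and 19.8% lower. The log2 difference was 4.90 ± 0.63 for Il1b, 5.83 ± 0.78 for Il1rn, 2.87 ± 0.32 for Il1r1 and 2.86 ± 0.61 for Il33. The share of fibroblast-like cells, the main source of Il1r1 and Il33, moved with these values, and its part was not tested. Against day 1 sham alone Il1b was at 2.62 and Il1rn at 2.56, and against day 14 sham, with 3 and 0 UMIs, at 7.19 and 9.10, each called. Il1rl1 was lower (-1.83 ± 0.46, adjusted p = 0.0011), a call lost after thinning (-0.73, adjusted p = 0.494). Il10 was higher (3.58 ± 1.19, adjusted p = 0.0131) from 63 UMIs, and without MI replicate 4, which held 10.6 CPM against 0.287 to 3.60 on the others, its adjusted p was 0.0651. It was not called against day 1 sham alone. Of the genes at or near 0 in sham, Il1a was at least 8.45-fold higher, Il1r2 was at 952 against 2 UMIs (ratio 89.3, interval 24.7 to 739) and Il6 at 585 against 1 (ratio 110, interval 19.6 to 4345). Tnf did not pass (0.87, adjusted p = 0.165), though it did after thinning (2.60, adjusted p = 0.000687) and against day 1 sham alone (1.94, adjusted p = 0.0352). It was at 18.8 to 21.5 CPM on the 5 MI plates and reached 54.8 CPM on a day 14 sham plate, a group in which 1 cell of the Ccr2 and MHC class II cluster held 14 and 1 macrophage-like cell held 12 of the 29 Tnf UMIs.

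**Figure D2:**
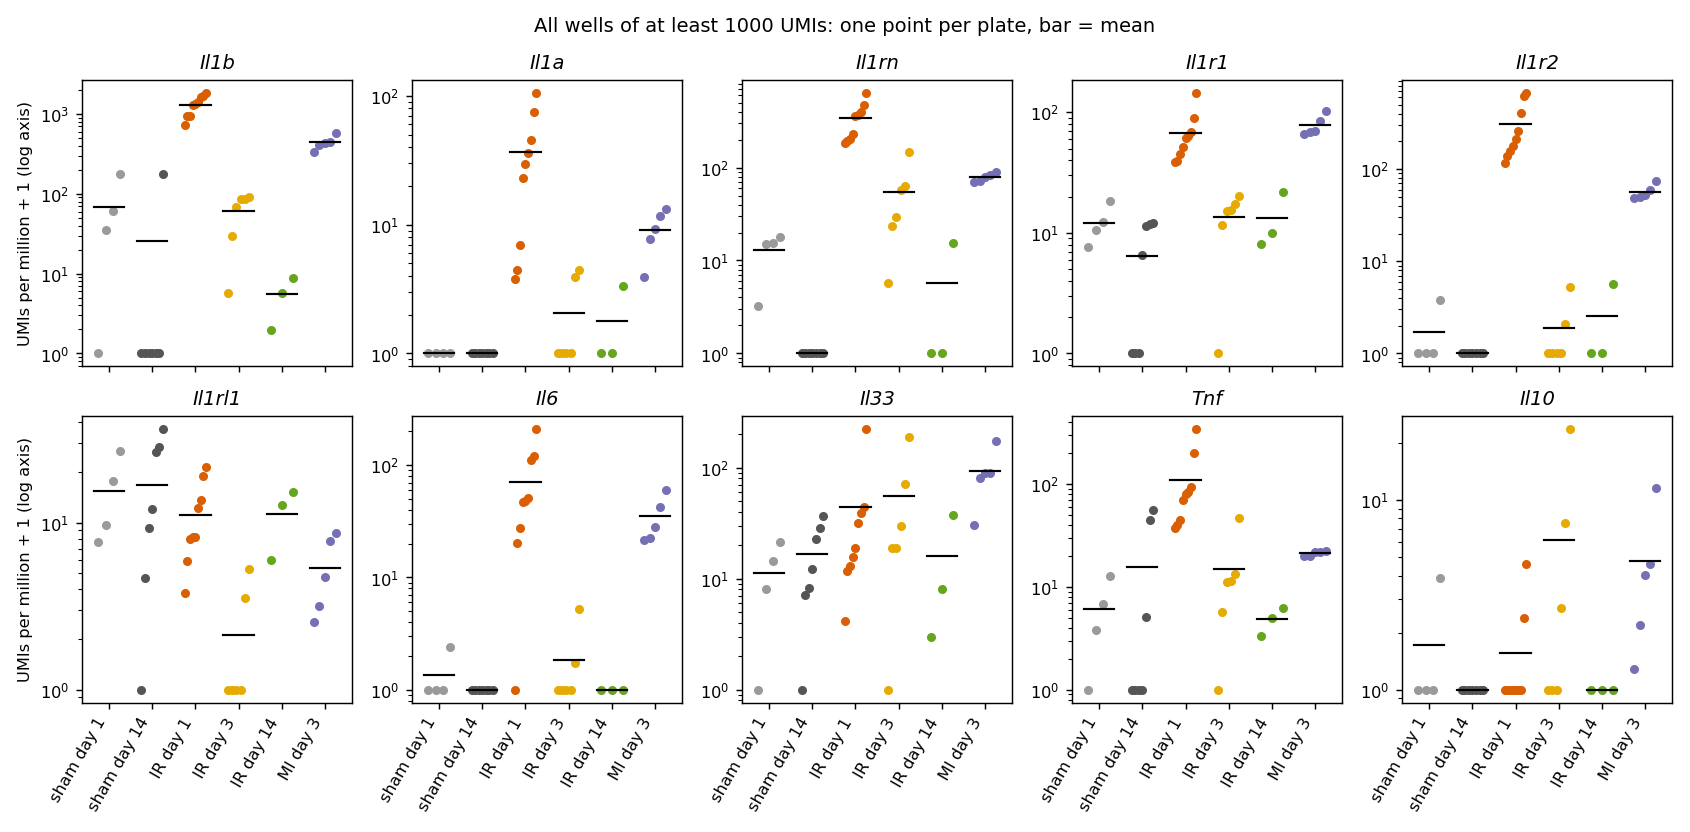
Level of the 10 genes in all wells of at least 1000 UMIs, 1 panel a gene, with 1 point per plate by group (CPM + 1, logarithmic axis) and bars for the group means. The 9 IR day 1 plates stand between 735 and 1833 CPM for Il1b, above the 5 MI plates at 337 to 571 CPM, and Il1rl1 is lower on the IR day 3 plates (0 to 4.28 CPM) than on the day 1 sham plates (6.64 to 26.0 CPM).

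Set against IR at the same day, MI plates had more Il1b (2.90 ± 0.60, adjusted p = 0.000592), Il1r1 (2.28 ± 0.35), Il1r2 (4.66 ± 0.67) and Il6 (4.11 ± 0.79), 4 of 10 genes where 10.6% of all genes were called, 5.35% higher. The groups did not overlap for any of these 4, and the share of all genes without overlap is not given. Il1r1 was at 64.8, 68.9, 67.6, 101 and 84.2 CPM in MI and at 0, 10.5, 14.6, 14.1, 19.0 and 16.3 CPM at IR day 3. Il6 was at 20.5, 41.6, 21.6, 58.9 and 27.3 CPM in MI. Il1rn did not pass and stood at 78.2 ± 8.04 CPM in MI and 53.7 ± 50.6 CPM at IR day 3. After thinning, Il1r1 lost its call (1.37, adjusted p = 0.12), and Il1rn (1.76, adjusted p = 0.0125) and Tnf (1.89, adjusted p = 0.0447) were called. Neutrophil-like cells were present in MI and absent from the IR day 3 wells, as given above, and MI wells were deeper. Their part in these differences was not tested.

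By day 14 none of the 10 genes was called between IR and sham (0 of 10 by edgeR and 0 by DESeq2), where edgeR called 0.0192% of all genes. Il1rn and Tnf had an unadjusted p under 0.05 by edgeR, and the share of all genes at that level is not given. Il6 and Il10 had no UMI in either group, which allows up to 1.36 CPM at IR day 14 and 2.31 CPM in day 14 sham. Il1b was at 9 against 3 UMIs (ratio 1.77, interval 0.441 to 10.2), so that a difference within this interval could not be told from none.

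Over the 6 groups the cell sources of a gene shifted as well as its level. At IR day 1 the neutrophil-like cells held 54.1% of the Il1b UMIs, the Ccr2 and MHC class II cluster 33.1% and the macrophage-like cells 4.52%. In MI these shares were 19.7%, 47.9% and 24.4%, and at IR day 3, with no neutrophil-like cell, 0, 34.9% and 53.3%. The antagonist moved further. Neutrophil-like cells held 39.7% of the Il1rn UMIs at IR day 1 and 4.19% in MI, whereas macrophage-like cells held 18.1% at IR day 1, 83.4% at IR day 3 and 64.8% in MI. For Tnf the macrophage-like share was 23.7% at IR day 1, 84.0% at IR day 3 and 63.3% in MI. Neutrophil-like cells held 80.5% of the Il1r2 UMIs at IR day 1 and 34.1% in MI. Fibroblast-like cells held 47.9% of the Il6 UMIs at IR day 1 and 77.9% in MI.

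**Figure D3:**
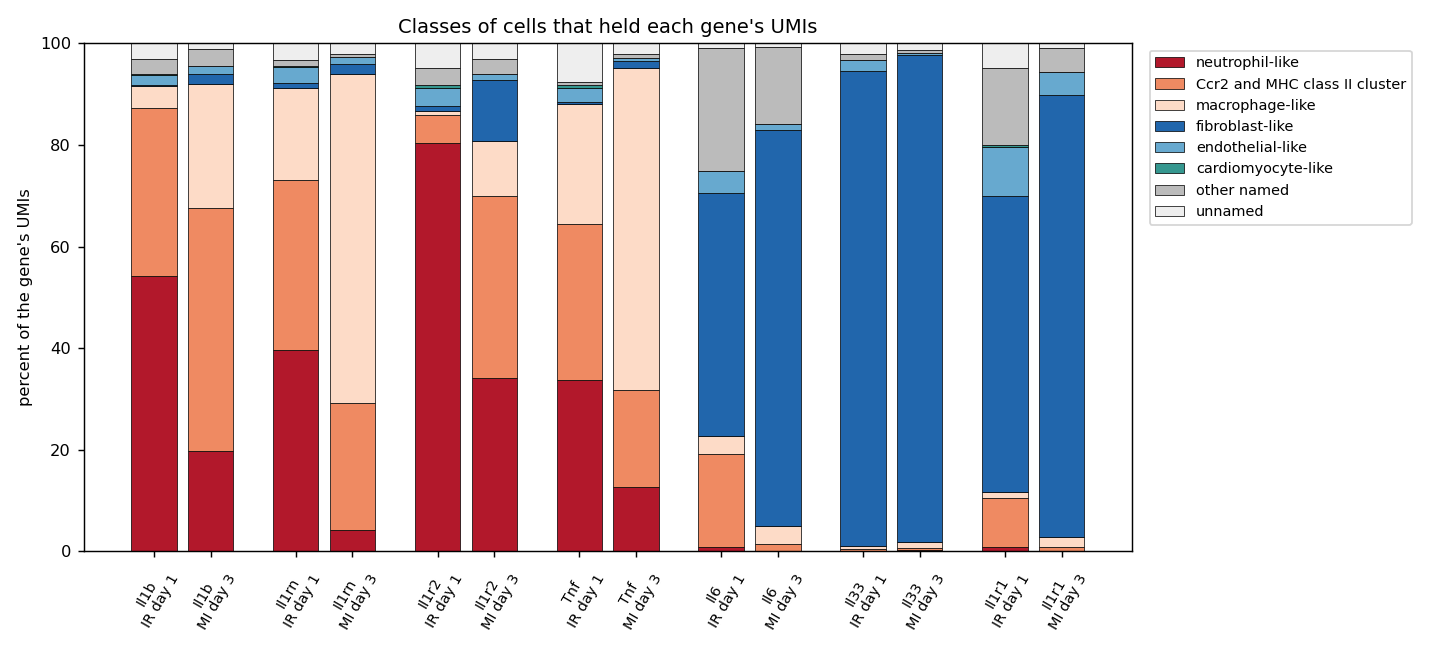
Percent of each gene's UMIs that fell in each cell class, as stacked bars, for IR day 1 and MI day 3. For Il1b the neutrophil-like part is 54.1% at IR day 1 and 19.7% in MI, and for Il1rn it is 39.7% and 4.19%.

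Neutrophil-like cells of IR day 1 and MI could be compared directly, on 9 and 5 plates of 5 to 20 cells each. Il1rn was lower in MI, and Il1b was not called. Il1b ran from 7534 over 9184 to 11820 CPM at IR day 1 and stood at 11121, 11357, 7514, 11653 and 12431 CPM in MI, a log2 difference of 0.13 ± 0.28 (edgeR adjusted p = 0.907). In pooled UMIs the ratio of MI to IR day 1 was 1.07, with a counting interval of 0.999 to 1.14. Il1rn ran from 513 over 2016 to 4765 CPM at IR day 1 and stood at 455, 300, 346, 476 and 323 CPM in MI. The groups did not overlap, and the log2 difference was -2.33 ± 0.38 (adjusted p = 3.04e-07), the only 1 of 5 members tested that passed, where 2.78% of all genes were called, 1.41% lower. Il1r2 (-0.43 ± 0.31, adjusted p = 0.583), Tnf (-0.58 ± 0.43, adjusted p = 0.605) and Il1a (-2.08 ± 0.75, adjusted p = 0.114) did not pass. Il1a had no UMI on 4 of the 5 MI plates, and without MI replicate 3, the fifth, its fitted difference was -5.10 (adjusted p = 0.00487). With plates of at least 10 cells only, the Il1rn difference was -1.94 and lost its call (adjusted p = 0.125). The summed neutrophil markers were themselves higher at IR day 1, 35492 to 66146 CPM against 17770 to 34377 CPM in MI, and fibroblast markers lower, 435 to 3040 CPM against 4069 to 7836 CPM. Their part in the Il1rn difference was not tested.

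In macrophage-like cells Il1b differed between MI and IR at day 3. It stood at 230, 268, 185, 397 and 427 CPM on the MI plates and at 0, 51.0, 69.0, 0, 0 and 109 CPM on the IR day 3 plates, which did not overlap, and the log2 difference was 2.15 ± 0.37 (edgeR adjusted p = 4.96e-05). DESeq2 did not call it (adjusted p = 0.169). Il1r2 was higher too (4.58 ± 0.77, adjusted p = 3.66e-05), from 1 UMI at IR day 3. These were 2 of 10 genes, where 10.7% of all genes were called, 6.23% higher. Il1rn was at 179, 94.8, 132, 130 and 170 CPM in MI and 0, 51.0, 111, 101, 10.3 and 99.3 CPM at IR day 3 and did not pass. Summed neutrophil markers in these cells were at 692 to 1179 CPM in MI (9 of 10 seen) and 411 to 529 CPM at IR day 3 (7 of 10 seen, S100a9 and Retnlg at 0). Cardiomyocyte markers were at 411 to 1044 CPM in MI and 1054 to 4313 CPM at IR day 3, and the part of either list was not tested. Of the 210 MI macrophage-like cells, 105 held Il1b, 127 Il1rn and 76 both.

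Only 1 IR day 1 plate had 5 or more macrophage-like cells (21 cells), so that its lone value is assumed to vary like those of the other groups. Il1b was at 364 CPM and Il1rn at 385 CPM there. Against this 1 plate the log2 difference at IR day 3 was -2.38 for Il1b and -2.09 for Il1rn. Calls from this edgeR fit rest on a group with no spread of its own. Neither was called with DESeq2 or after thinning to 1000 UMIs per cell, and Il1rn was not called with a replicate block. Between MI and this IR day 1 plate the median log2 difference of the 10 genes was 0.26, and that of all genes was 0.23. The differences of single genes depended on the cells taken. With a minimum of 500 UMIs, a finer clustering or the Ccr2 and MHC class II cluster added, Il6 (-3.05, -3.47 and -3.41) and Tnf (-2.32, -1.69 and -2.27) turned to lower in MI.

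The Ccr2 and MHC class II cluster was compared between MI and IR day 1 after its mixed markers had been seen. Il1b ran from 982 over 2397 to 3522 CPM at IR day 1 and from 1930 to 2876 CPM in MI, and the ranges overlapped. Il1r2 was higher in MI (1.63 ± 0.38, adjusted p = 0.0136), at 160 to 305 CPM against 8.70 over 48.6 to 244 CPM, and Il6 was lower (-3.06 ± 0.75, adjusted p = 0.0178), at 0 to 9.37 CPM against 0 over 8.70 to 172 CPM. These were 2 of 8 genes tested, where 2.05% of all genes were called, 1.50% higher and 0.541% lower, and DESeq2 called neither. Il6 was also not called without MI replicate 2 (-2.90, adjusted p = 0.051) or 3 (-3.03, adjusted p = 0.0533), and with a replicate block its difference was -0.11 (adjusted p = 0.996). After thinning Il1r2 lost its call (1.55, adjusted p = 0.32), Il6 was not tested and Il1b was called higher in MI (1.19, adjusted p = 0.0192). Summed neutrophil markers in this cluster were at 444 to 5773 CPM at IR day 1 and 1818 to 4791 CPM in MI, and fibroblast markers at 266 to 1884 and 1151 to 2617 CPM. Mural markers had medians of 26.6 and 149 CPM, and the part of these lists was not tested. On the 2 IR day 3 plates with 5 or more of these cells, Il1b was at 725 and 886 CPM.

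**Figure D4:**
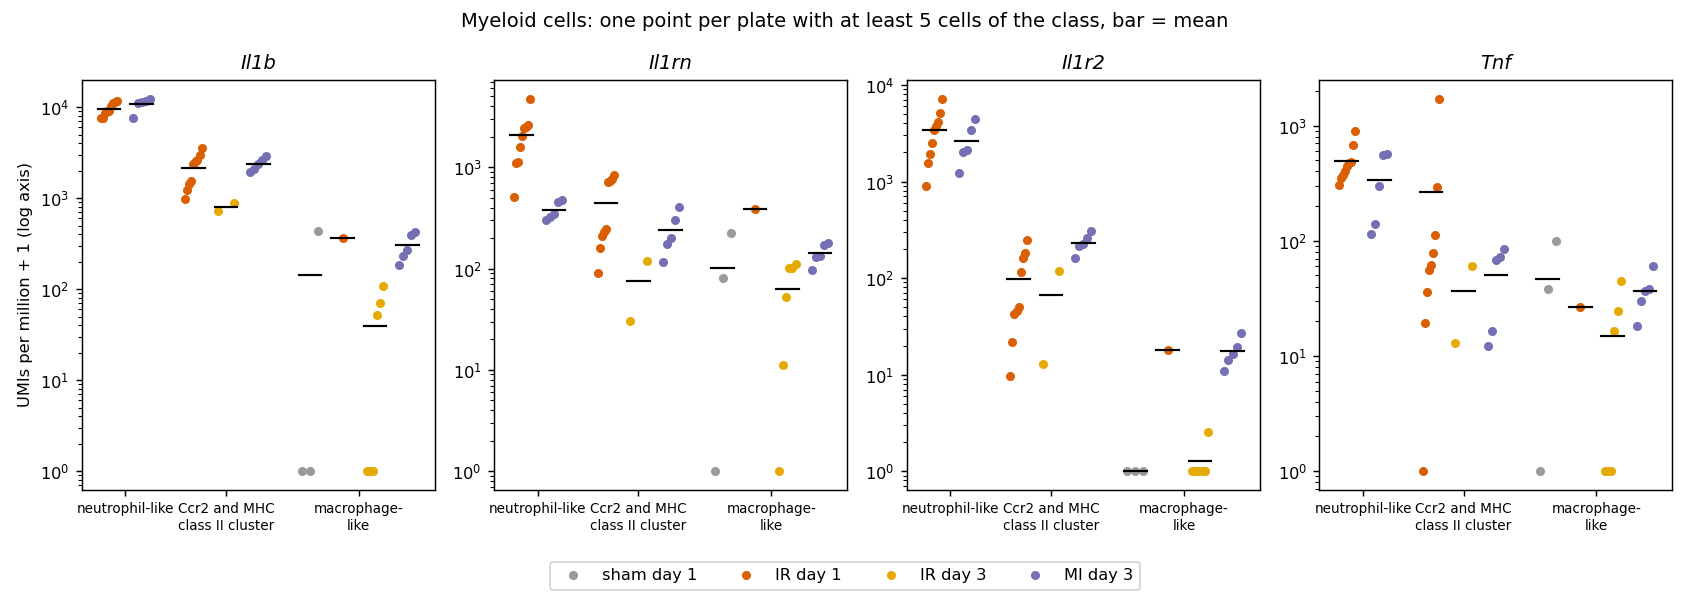
Level of Il1b, Il1rn, Il1r2 and Tnf per plate (CPM + 1, logarithmic axis) in neutrophil-like cells, the Ccr2 and MHC class II cluster and macrophage-like cells, with bars for group means over plates of at least 5 such cells. Il1rn in neutrophil-like cells separates IR day 1 (513 to 4765 CPM) from MI (300 to 476 CPM), while Il1b there does not.

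Endothelial cells line the vessels through which leukocytes enter the infarct. The endothelial-like cells gave Il1b, Il1rn, Il1r2 and Il6 as higher at IR day 1 than in day 1 sham, 4 of 8 genes tested where 4.98% of all genes were called, 1.52% higher. The log2 differences were 3.87 ± 0.81 for Il1b, 5.95 ± 1.24 for Il1rn, 5.86 ± 1.18 for Il1r2 and 3.95 ± 1.25 for Il6 (adjusted p = 0.0429). In pooled UMIs Il1b was at 85 against 5 (ratio 17.8, interval 7.36 to 56.4), Il1rn at least 13.3-fold, Il1r2 at least 11.9-fold and Il6 at least 3.50-fold higher, the last 3 with no sham UMI. Il6 lost its call without any 1 of the 4 sham plates (adjusted p = 0.0846 to 0.147). Il1b ran from 0 over 94.2 to 1059 CPM on the 8 plates. Neutrophil markers moved with these values. Their summed level was 199 to 4491 CPM in endothelial-like cells at IR day 1 (9 of 10 seen) and 135 to 1141 CPM in day 1 sham (6 seen, S100a9, Csf3r and Mmp9 at 0). An S100a8 or S100a9 UMI was present in 27 of 77 cells at IR day 1 and in 1 of 105 in sham, and 11 of the 14 endothelial-like cells with Il1b, 6 of the 7 with Il1rn and 7 of the 9 with Il1r2 held one. Cardiomyocyte markers were lower, at 890 to 12042 CPM at IR day 1 against 13860 to 20635 CPM in day 1 sham. With a finer clustering Il1b was not called (2.70, adjusted p = 0.108) and the other 3 genes were not tested, and DESeq2 called Il1r2 alone. The part of neutrophil RNA and of the other markers was not tested.

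In MI, endothelial-like cells had 3 of 8 genes higher than sham, Il1b (4.91), Il1rn (3.76, adjusted p = 0.0142) and Il1r2 (3.24, adjusted p = 0.0281), where 18.5% of all genes were called, 10.8% higher. Il1b stood at 339 CPM on MI replicate 4 against 2.39 to 63.0 CPM on the other plates. Without that plate Il1rn (2.87, adjusted p = 0.0775) and Il1r2 (2.88, adjusted p = 0.0616) lost their calls. Il1r2 also lost its call without MI replicate 2 (2.80), day 1 sham replicate 3 (3.20) or day 14 sham replicate 1 (3.23). Summed macrophage markers in these cells were at 430 to 1164 CPM in MI, 62.4 to 545 CPM in day 1 sham and 33.9 to 3452 CPM in day 14 sham, and neutrophil markers at 35.8 to 482, 135 to 1141 and 112 to 259 CPM. Cardiomyocyte markers were at 322 to 576 CPM in MI and at 13860 CPM or more on the sham plates. Fibroblast markers were at 897 to 2713 CPM in MI, 406 to 1115 CPM in day 1 sham and 358 to 919 CPM in day 14 sham. The endothelial markers themselves were at 5094 to 9857 CPM in MI and at 14568 CPM or more on the sham plates. Their part in the differences was not tested. Il1r1, the receptor through which IL-1 acts on endothelium, did not pass in either comparison and was at 16.9 ± 14.4 CPM in day 1 sham (n = 4), 26.9 ± 30.4 CPM at IR day 1 (n = 8) and 51.5 ± 42.0 CPM in MI (n = 5). At day 14 none of 8 genes was called by edgeR or DESeq2, where edgeR called 0% of all genes, and none of the 8 had an unadjusted p under 0.05 by edgeR. On simulated counts this comparison recovered 34% of 4-fold and 72% of 16-fold changes among better-counted genes, so that real differences could be missed.

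In fibroblast-like cells Il1r1 was higher in MI than at IR day 3. It stood at 140, 181, 123, 251 and 157 CPM on the MI plates against 19.7, 82.7, 49.7 and 54.0 CPM, without overlap (1.54 ± 0.39, adjusted p = 0.0122), the only 1 of 7 genes tested that passed, where 5.51% of all genes were called, 2.67% higher. After thinning to 1000 UMIs per cell the call was lost (2.24, adjusted p = 0.157). The cluster led by Cxcl5 and Timp1 held 131 of the 132 fibroblast-like cells of MI and 37 of the 57 of IR day 3. Summed fibroblast markers were at 31143 to 37851 CPM in MI against 70569 to 96831 CPM at IR day 3, and cardiomyocyte markers at 393 to 582 against 1831 to 8641 CPM. Their part in the Il1r1 difference was not tested. At IR day 1 Il1r1 was at 121, 122, 116, 78.4 and 137 CPM and in day 1 sham at 63.3, 44.6 and 72.7 CPM. Il6 was at 41.8, 112, 38.0, 107 and 46.8 CPM in MI and at 0, 0, 0 and 45 CPM at IR day 3 (2.71 ± 0.97, adjusted p = 0.0958), and without IR day 3 replicate 7, the plate with the Il6 UMIs, its difference was called at 7.96. Il33 did not pass and its groups overlapped, with 190, 74.4 and 109 CPM in day 1 sham, 354, 144, 249 and 108 CPM at IR day 3 and 211, 236, 327, 87.8 and 148 CPM in MI. At IR day 1 it was at 115, 11.1, 72.6, 862 and 75.0 CPM. Il1r1 was at 0 and 99.7 CPM on the 2 IR day 14 plates and at 0 on the 1 day 14 sham plate, and over the other 4 groups the order of its means was MI (170 ± 50.0 CPM), IR day 1 (115 ± 22.0), day 1 sham (60.2 ± 14.3) and IR day 3 (51.5 ± 25.8), and of the neighbours in it only IR day 1 and day 1 sham had plates that did not overlap.

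**Figure D5:**
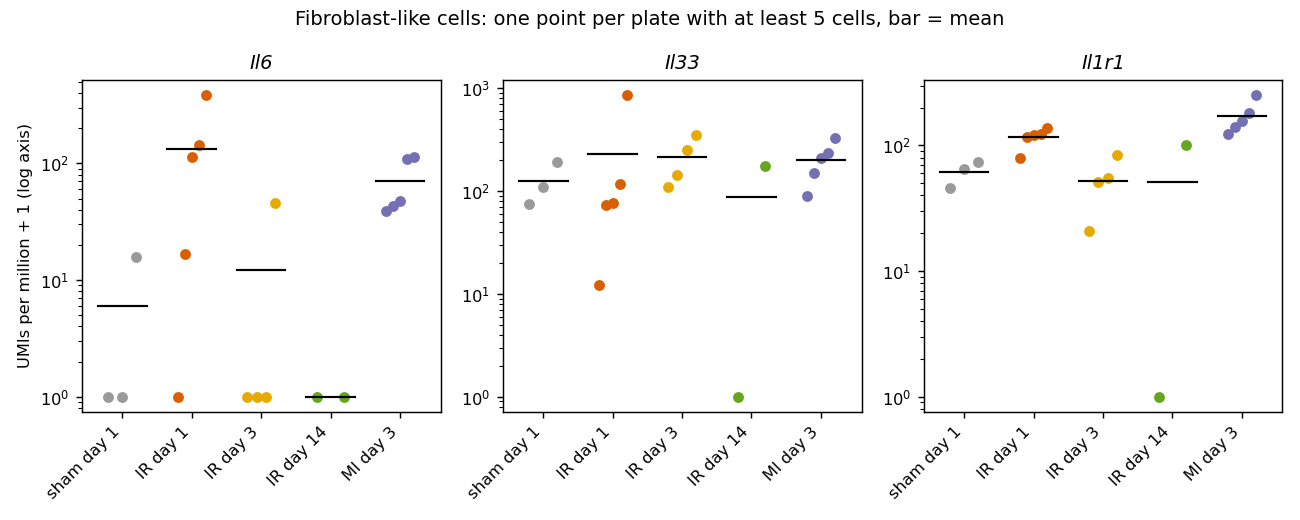
Level of Il6, Il33 and Il1r1 in fibroblast-like cells per plate (CPM, 1 point per plate of at least 5 such cells) by group, with bars for group means. Il1r1 stands at 123 to 251 CPM on the MI plates and at 19.7 to 82.7 CPM on the IR day 3 plates, while the Il33 plates of the groups overlap.

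Il1rl1, which encodes the IL-33 receptor, was the member that was lower than sham in both day 3 groups, though not after thinning to 1000 UMIs per well, as given above. In all wells it was at 6.64, 26.0, 16.9 and 8.67 CPM in day 1 sham, 0 over 11.1 to 35.3 CPM in day 14 sham, 0, 0, 2.55, 0, 0 and 4.28 CPM at IR day 3 and 7.71, 1.54, 3.74, 6.78 and 2.17 CPM in MI. In macrophage-like cells its 11 UMIs in day 1 sham made 119, 73.8 and 33.1 CPM on 3 plates of 5 or 6 cells, against 10.3 CPM or less on the MI plates. No macrophage comparison was made with these sham cells, so this is a description of few counts.

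The pathway around IL-1 was followed by lists whose genes were not used for clustering. The shares of all genes called higher and lower, against which the counts of each list stand, were 10.2% and 12.2% at IR day 1, 11.5% and 8.16% at IR day 3 and 26.7% and 19.8% in MI. Of the inflammasome and IL-1 processing genes, 3 of 11 were higher at IR day 1 than in day 1 sham and none was lower: Nlrp3, the sensor of the NLRP3 inflammasome (4.55 ± 0.63, adjusted p = 3.68e-07), the channel gene Panx1 (3.30) and the adaptor Pycard (1.84). In MI against sham 5 of 11 were higher, among them Nlrp3 (4.29), Pycard (2.40) and Panx1 (2.91), and 2 were lower. At IR day 3 against sham 4 were higher, led by the ATP receptor P2rx7 (2.12), Panx1 (2.89) and Pycard (1.91), and 1 was lower. The median log2 difference of the 11 genes was 0.68 at IR day 1, 0.93 at IR day 3 and 0.75 in MI, and that of all genes -0.05, 0.00 and 0.20. Nlrp3 was also higher in MI than at IR day 3, in all wells (2.29 ± 0.49) and in macrophage-like cells (2.16 ± 0.34). In each of these, 2 of the 11 genes were higher and 0 lower, where 5.35% and 6.23% of all genes were higher. The median log2 difference of the list was -0.22 in all wells and -0.20 in macrophage-like cells, against 0.16 and 0.10 for all genes.

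Of 15 genes of IL-1 receptor signalling, 2 were higher at IR day 1, the adaptor Myd88 (1.84 ± 0.37) and the co-receptor Il1rap (2.88 ± 0.59). Against sham, 5 were higher in MI and 2 at IR day 3, Myd88 in both (1.91 and 1.18), and none was lower, so that these counts lay near the shares over all genes. Between MI and IR day 3 none of the 15 was called in all wells or in macrophage-like cells, where 10.6% and 10.7% of all genes were. Of 16 NF-kB subunits and inhibitors, 6 were higher at IR day 1, led by Bcl3 (2.25), Tnfaip3 (2.71) and Nfkbid (3.17), 2 at IR day 3 and 11 in MI. In macrophage-like cells 4 of 16 were higher in MI than at IR day 3, where 6.23% of all genes were, led by Nfkbie (2.75 ± 0.41) and Nfkbia (1.84 ± 0.28), which encode inhibitors of NF-kB and are known targets of it. The median log2 difference of the 16 genes was 1.11 at IR day 1, 0.57 at IR day 3 and 1.34 in MI, where that of all genes was -0.05, 0.00 and 0.20. For the 15 signalling genes it was 0.26, 0.30 and 0.60.

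For IR day 14 against day 14 sham, no gene of these lists was called in all wells, where 0.0192% of all genes were. Of the receptors and signalling genes of IL-6, TNF and IL-10, 6 of 17 were higher at IR day 1, 5 at IR day 3 and 11 in MI, each against sham, where 10.2%, 11.5% and 26.7% of all genes were higher, with median log2 differences of 0.75, 0.70 and 1.09. Il10ra, the IL-10 receptor chain, was among them in all 3 (1.94, 2.91 and 2.56), and Tnfrsf1b, a TNF receptor, was at 2.50 at IR day 3 and 2.20 in MI. Socs3, the feedback inhibitor of IL-6 signalling, was higher in MI than in sham (2.27 ± 0.42) and than at IR day 3 (1.5 ± 0.46). Of 6 other IL-1 family genes tested, 2 were higher at IR day 1, Il1f9 (3.04) and Il18rap (3.12), and Il18 was higher at IR day 3 (3.34) and in MI (2.70), where Il18bp, which encodes the IL-18 binding protein, was lower (-1.13). Of 11 other cytokine genes tested, 3 were higher and 2 lower at IR day 1, 1 and 1 at IR day 3, and 4 and 2 in MI, against shares over all genes of 10.2% and 12.2%, 11.5% and 8.16%, and 26.7% and 19.8%. Osm, which encodes oncostatin M, was higher than sham in all 3 comparisons (4.17, 3.97 and 5.82), and lower in neutrophil-like cells of MI than of IR day 1 (-2.77 ± 0.50), beside Il1f9 (-1.62 ± 0.45) of the IL-1 family. In macrophage-like cells Osm was higher in MI than at IR day 3 (2.01 ± 0.32). Its log2 difference between IR day 3 and the 1 IR day 1 plate with 5 or more such cells was -3.01, against a group with no spread of its own.

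The genes most alike in pattern were taken over 22 pools of at least 20 cells, each a class in a group, by Pearson's r of log2(CPM + 10). The pools share plates and depth, and r is a description. Nearest to Il1b were Nlrp3 and Nfkbid (r = 0.98 each) and Ltb4r1 (0.97), and nearest to Il1r2 were S100a9, S100a8 (0.98 each) and Siglece (0.97). Il1rn was nearest to Clec4n (0.98), Clec5a and Ccl4 (0.97 each). Il1a was nearest to Clec4e (0.96), Osm (0.95) and Slfn4 (0.94), and Tnf to Slfn4 (0.97), Nlrp3 and Treml2 (0.95 each). Of the stromal genes, Il33 was nearest to Mrc2 (0.96), Tmem45a (0.95) and Kdelr3 (0.94), Il1r1 to Tbrg1 (0.95), Armcx2 (0.93) and Aebp1 (0.92), and Il6 to Inhba, Rdh10 (0.90 each) and Srm (0.89). Il1rl1 had no close neighbour, its highest being Xpc at 0.78, Scd3 at 0.77 and Eif4ebp3 at 0.69.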

How the data were processed

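The authors aligned the reads with BWA and deposited a table per plate of UMI counts per gene, in wells as columns; builds named in their processing notes are GRCm38 and mm10, and the aligner's version is not given in the sources used here. The values are whole counts with no scaling, and a UMI of 6 bases cannot count more than 4096 molecules. Mitochondrial genes and spike-ins were left out of totals. Wells with at least 1000 UMIs were clustered (scanpy 1.11.5, Leiden) without the 10 genes or the pathway genes, and classes were named from marker lists, since no cell annotation was used here. The genes, lists and markers were chosen with earlier results of these data known. Wells copied between plates were left out. Day 14 sham replicates 2 and 7 entered as their mean.

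UMIs were summed per plate over all wells, or over a class where a plate had at least 5 of its cells, and tested with edgeR 4.0.16 (quasi-likelihood F test, TMM scaling, genes with at least 10 UMIs over the plates of the fit, Benjamini-Hochberg over all genes tested, threshold 0.05), all groups in 1 fit. The script was tested on simulated counts. Alternatives were RLE scaling, DESeq2 1.42.0, other gene filters, other minimum UMIs per well, thinning to 1000 UMIs, Leiden resolution 2, plates of at least 10 cells, sham groups taken singly, a replicate block and leaving out each plate of groups of 2 to 5 plates. Of the 10 genes, those called were named in each comparison, and those not called were named in part. Also named were up to 3 called genes per pathway list by lowest adjusted p and the 3 genes most alike in pattern for members of at least 100 UMIs. Other genes named were chosen after their values were seen. Depth per plate limits rare genes, and a floor is 3 counts over the group.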

Additional observations from a re-analysis of the deposited data

Results flagged for a closer look

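In groups of 4 to 10 plates, 91 sets of values were searched for a plate far from the rest by Dixon's test, 14 were found, and chance gives about 1 in 20. In all wells these were Il1r1 on IR day 1 replicate 2 (143 CPM), Il33 on IR day 1 replicate 7 (220 CPM) and IR day 3 replicate 3 (189 CPM), and Tnf (45.3 CPM) and Il10 (22.7 CPM) on IR day 3 replicate 1, a plate of 11 wells. That plate held 44133 UMIs, so that very few UMIs make these levels. In macrophage-like cells it was Il10 on IR day 3 replicate 4 (12.1 CPM). In neutrophil-like cells, Il1a on IR day 1 replicate 1 (657 CPM) and Il1rn on IR day 1 replicate 8 (4765 CPM) stood high and Il1b on MI replicate 3 stood low (7514 CPM). In endothelial-like cells, Il1b was high on IR day 1 replicate 6 (1059 CPM) and MI replicate 4 (339 CPM), and Il1rn on IR day 1 replicate 4 (410 CPM). In the Ccr2 and MHC class II cluster, Il1r1 on IR day 1 replicate 7 (103 CPM) and Tnf on IR day 1 replicate 6 (1718 CPM) stood high.

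Wells of 200 to under 1000 UMIs, which the comparisons as reported did not use (those of at least 500 UMIs entered 1 alternative), also held these transcripts above the upper counting limit of the sham wells of that depth. Il1b was at 1295 CPM at IR day 1 and 314 CPM in MI against a sham limit of 14.9 CPM. Il1rn was at 311 and 103 CPM (limit 29.0 CPM), and Il1r2 at 670 and 91.5 CPM (limit 14.9 CPM). Tnf was at 74.8 CPM at IR day 1 (limit 17.4 CPM). In MI, Il1r1 was at 49.9 CPM (limit 17.4 CPM), Il6 at 16.6 CPM (limit 6.26 CPM) and Il33 at 34.9 CPM (limit 14.9 CPM).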

How the results depend on the processing

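The number of the 10 genes called moved by less than 1.5 times in 200 of 244 alternatives, and in all wells the counts at IR day 1 (7) and in MI against IR day 3 (4) were 7 to 7 and 4 to 4 over plates left out, which were those of groups of 2 to 5 plates. The share of all genes called in each alternative is not given, so these counts are not set against it. In macrophage-like cells both comparisons with IR day 1 rest, as reported, on 1 plate of that group. With MI against sham (9) they were 8 to 9. IR day 3 against sham (4) gave 2 with DESeq2, 1 after thinning to 1000 UMIs, 2 against day 1 sham alone and 2 to 3 over plates left out. In macrophage-like cells, IR day 3 against IR day 1 (2) gave 0 with DESeq2, 0 after thinning, 1 with the replicate block, 6 with a minimum of 500 UMIs, and 7 at Leiden resolution 2 or with the Ccr2 and MHC class II cluster added (chosen after seeing the data). MI against IR day 1 (0) gave 1 with no gene filter, 4 at a minimum of 500 UMIs, 1 at 2000, 4 at resolution 2, 5 with that cluster and 0 to 1 over plates left out. MI against IR day 3 (2) gave 1 with DESeq2, filterByExpr or thinning, 4 with no gene filter and 2 to 3 over plates left out. Neutrophil-like cells (1) gave 2 at a minimum of 2000 UMIs, 0 with plates of at least 10 cells and 1 to 2 over plates left out. Endothelial-like cells at IR day 1 (4) gave 1 with DESeq2 or filterByExpr, 2 after thinning, 0 at resolution 2, where of the 4 only Il1b was tested, and 3 to 3 over plates left out. In MI (3) they gave 1 with DESeq2, filterByExpr, thinning or either sham group alone and 1 to 3 over plates left out. Fibroblast-like cells (1) gave 3 with no gene filter, 0 after thinning and 1 to 2 over plates left out. The Ccr2 and MHC class II cluster (2) gave 1 with RLE scaling, a minimum of 2000 UMIs, thinning or the replicate block, 0 with DESeq2 or filterByExpr and 1 to 2 over plates left out.

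Over 124 values of single genes and 1994 alternatives, 1879 kept their side of the threshold and, where called, their sign, 63 lost and 37 gained a call, and 15 turned. Il1b at IR day 3 was at -0.28 against day 1 sham alone. In macrophage-like cells, with a minimum of 500 UMIs, at resolution 2 and with the cluster added, IR day 3 against IR day 1 was at -3.59, -3.21 and -3.41 for Il1a and -5.59, -7.37 and -5.95 for Il6. MI against IR day 1 was at -3.05, -3.47 and -3.41 for Il6 and -2.32, -1.69 and -2.27 for Tnf, and at -1.85 (500 UMIs) and -1.77 (cluster added) for Il1a. The cause was not tested. RLE scaling moved the median of all genes from 0.20 to -0.09 in MI against sham, and the share of calls that were higher from 57.4% to 44.7%. In fibroblast-like cells these were 0.20 to -0.08 and 48.4% to 19.9%, and no called member turned under it. Replicate numbers did not pair the plates, with a median r of 0.002 over 59 pairs of the same number and -0.003 over 411 others, and the block changed counts only as given. The fewest UMIs, in Il10 and Il1rl1, limit what those genes can show.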
